A study of Mus musculus with 12 samples.

Results

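The hepatic ABC efflux transporters are ATP-driven pumps that carry drug conjugates, bile salts, phospholipids and sterols out of the liver cell. The set described here holds 10 genes (Abcc2, Abcc3, Abcc4, Abcc6, Abcb1a, Abcb4, Abcb11, Abcg2, Abcg5 and Abcg8). Their symbols were chosen by name as known efflux pumps of liver, with earlier results of these data known. Every probe set whose platform annotation gives 1 of these symbols was taken, which found 10 probe sets for 9 of the genes among 22690 probe sets in all. No probe set in that annotation is named Abcc4, so Abcc4 was not analysed here. All 9 genes found were among the 8469 genes tested of the 12393 with a probe set of their own. Of the 9, 8 lay above the filter for low values on all 12 arrays, while Abcb1a passed it on 4 arrays and lay near background throughout.

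Liver RNA came from 12 male C57BL6/J mice, 8 weeks old, with 3 mice in each of 4 groups, each liver on its own Affymetrix array. The groups were txnrd1 liver-null mice given acetaminophen (APAP), txnrd1 liver-null mice given saline, wild-type mice given APAP and wild-type mice given saline. APAP was injected into the peritoneum at 100 mg/kg and livers were taken after 8 hours. In the mice labelled liver-null a conditional Txnrd1 allele was disrupted by albCre, a Cre recombinase driven by the albumin promoter and so made in hepatocytes. All values below are RMA values on the log2 scale, where a difference of 1 is a doubling of signal, and levels of different genes are not compared, since probe sets differ in brightness.

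Txnrd1, the deleted gene, went against its label: its expressed probe set read 10.26 to 10.58 (median 10.38) in the 6 livers labelled liver-null and 9.43 to 9.81 (median 9.64) in the 6 wild-type livers. The other probe sets of Txnrd1 lay below the filter on every array. Where the probes lie relative to the deleted part was not analysed here, so the genotype is given as labelled throughout and each genotype direction rests on those labels. The arrays also fell into a larger set of 8 and a smaller set of 4, which the labels do not name, by the upper quartile of their values (5.73 to 5.85 and 5.49 to 5.58). The smaller set holds a single array of every group, and values within the sets are given where they turn a direction or move a value widely; those of the smaller set rest on single arrays and carry no test. Markers of hepatocytes read 12.2 to 12.6 on average over 5 genes on every array, and of 5 cholangiocyte markers Krt19, Krt7 and Cftr lay below the filter on all arrays. Averages over 5 stellate cell markers were 4.69 to 4.94 in saline livers labelled liver-null, below the 5.05 to 5.20 of wild-type saline livers. After APAP the ranges overlapped (4.71 to 4.98 in livers labelled liver-null and 4.93 to 5.06 in wild-type livers). All 5 genotype differences were below 0 in saline (median -0.24) and after APAP (median -0.15). Of these 5 genes 0 passed the threshold under either injection (limma), where 0.638% of all genes did in saline and 0.768% after APAP. Median genotype differences of 2 neutrophil markers were 0.65 in saline and -0.40 after APAP, with 0 past the threshold. The part of these cell types in the results was not tested. In these bulk samples, fewer cells of a type and less RNA per cell cannot be told apart.

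Acetaminophen is cleared by the liver mainly as glucuronide and sulfate conjugates and, after oxidation, as a glutathione conjugate, and these leave the hepatocyte through ABC pumps. Pumps on the canalicular membrane (Abcc2, Abcb11, Abcb4, Abcg2, Abcg5, Abcg8) empty into bile, while Abcc3 and Abcc4 on the sinusoidal side empty into blood. In mice, Abcc2, Abcc3, Abcc4 and Abcg2 have been tied to NRF2, the factor of antioxidant defence, Abcb11 and Abcb4 to the bile acid receptor FXR, and Abcg5 and Abcg8 to the sterol receptor LXR.

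Of the 9 transporters, Abcc3 and Abcg2 rose in livers labelled liver-null when the genotype difference was averaged over both injections, and 0 fell. Abcc3 was 2.36-fold higher and Abcg2 1.29-fold higher. Over all 8469 genes 4.46% passed in this comparison (limma, Benjamini-Hochberg adjusted p under 0.05), 2.28% upward and 2.18% downward. The other 7 did not pass: Abcc2, Abcc6, Abcb1a, Abcg5 and Abcg8 had differences above 0 and Abcb4 and Abcb11 below 0. The median difference of the 9 genes was 0.23, beside -0.01 over all genes tested, and it was 0.10 without wild-type APAP 12 and 0.14 without liver-null saline 16. In saline alone and after APAP alone 0 of 9 passed, where 0.638% and 0.768% of all genes did. At an unadjusted p under 0.05 (limma) there were 3 in saline (Abcc3, Abcb11, Abcg2) and 4 after APAP (Abcc2, Abcc3, Abcg2, Abcg8). At that limit stood 1034 of all 8469 genes in saline and 764 after APAP. For APAP against saline 0 of 9 passed in either genotype, where 0% of all genes did.

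**Figure D1:**
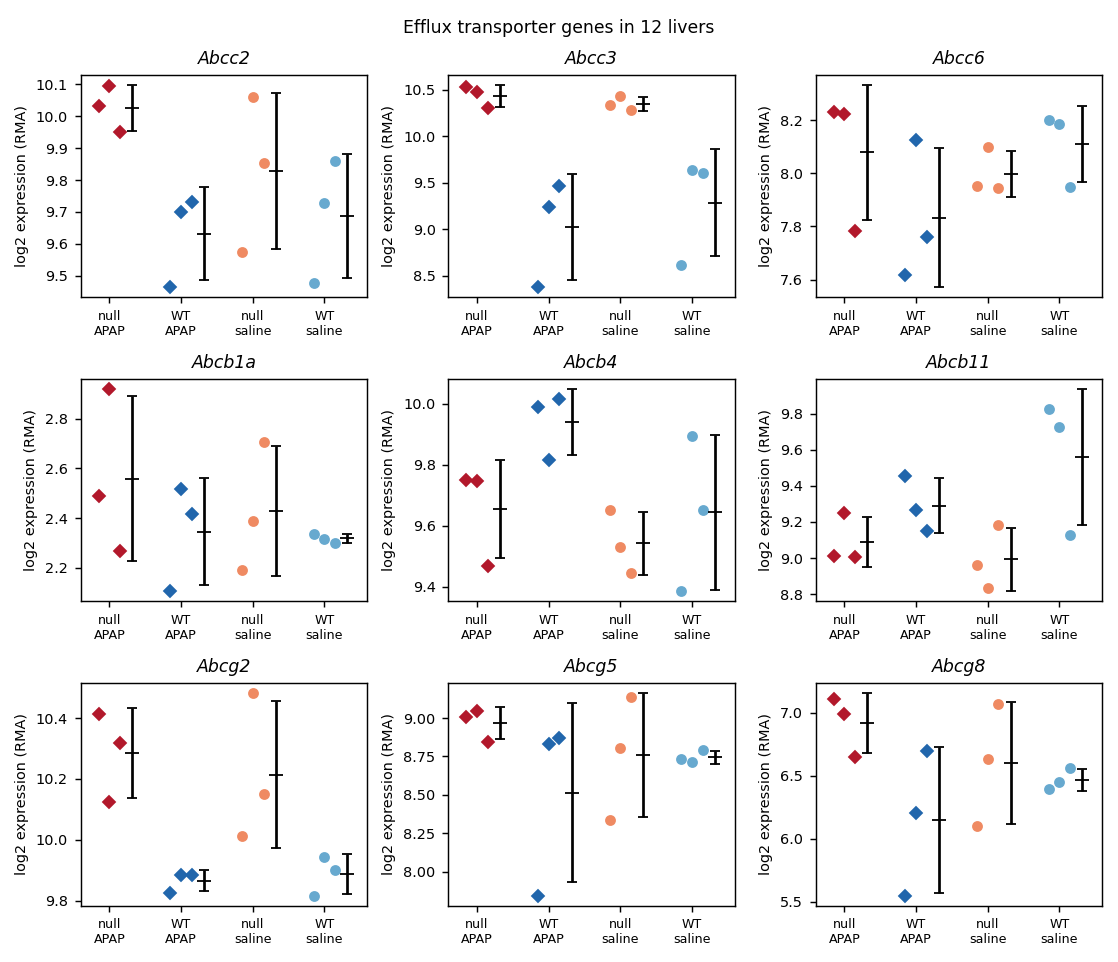
Log2 expression (RMA, vertical axes) of 9 transporter genes in each of 12 livers, by genotype and injection; each point is 1 liver, and the black mark and bar beside it give the mean and SD of 3 livers. Abcc3 and Abcg2 are higher in every liver labelled liver-null (null) than in any wild-type (WT) liver, and the other 7 genes overlap between the genotypes.

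Among the exporters of conjugates, Abcc3 (probe set 1428988_at), the sinusoidal pump that moves glucuronides such as APAP glucuronide into blood, read 10.53, 10.48 and 10.31 in the livers labelled liver-null after APAP, against 8.38, 9.24 and 9.46 in wild-type livers after APAP. In saline Abcc3 read 10.34, 10.43 and 10.28 in livers labelled liver-null, against 8.62, 9.64 and 9.61 in wild-type livers. The genotypes did not overlap under either injection. In saline 6.48% of all genes split so upward and 8.70% downward, and after APAP 6.97% upward and 6.91% downward. The wild-type livers were spread more widely (SD 0.53, n = 6) than those labelled liver-null (SD 0.10, n = 6), because wild-type APAP 12 and wild-type saline 8 stood lowest. Averaged over both injections the log2 difference was 1.24 (SE 0.21, 95% interval 0.78 to 1.70, adjusted p = 0.00701, higher in 6 of 6 livers). The share of all genes whose 6 livers labelled liver-null all lay above the 6 wild-type livers was 2.27%, and 2.09% lay all below. Within the larger set of arrays the Abcc3 difference was 1.48 and within the smaller set 0.76, and with the set as a block it kept its call (adjusted p = 0.00465). Without wild-type APAP 12 it was 1.08 and without wild-type saline 8 it was 1.07, both past the threshold. Abcc3 differences within 1 injection were 1.41 (SE 0.30, adjusted p = 0.0597) after APAP and 1.07 (SE 0.30, adjusted p = 0.141) in saline. The Abcc3 difference after APAP passed with the set of arrays as a block (adjusted p = 0.0356).

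Abcc2 (probe set 1450109_s_at) is the canalicular pump for glutathione and glucuronide conjugates. Its start region is shown because the core of the antioxidant response element, searched as TGACNNNGC on both strands, lies in it. The window is 300 bases of RefSeq sequence (GRCm38.p6, 250 bases before to 50 after the start site, plus strand), in lower case with the match in capitals, 98 bases before the start site.
Abcc2, chr19:43782058-43782357, plus strand: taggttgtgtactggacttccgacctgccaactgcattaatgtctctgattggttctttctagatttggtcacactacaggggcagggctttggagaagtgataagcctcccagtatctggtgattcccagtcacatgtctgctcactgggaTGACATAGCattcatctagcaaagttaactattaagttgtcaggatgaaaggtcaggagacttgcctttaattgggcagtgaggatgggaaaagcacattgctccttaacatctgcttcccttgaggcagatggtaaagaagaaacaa
The same letters occur in 12.4% of 32851 start regions of this length in the table, so the match is a description only. Of the 10 genes 8 had an entry in that table, and Abcc3 and Abcc6 had none. Start regions of Abcb1a and Abcc4 also held a match, and those of Abcb4, Abcb11, Abcg2, Abcg5 and Abcg8 held none.

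Abcc2 read 10.03, 10.10 and 9.95 in livers labelled liver-null after APAP, against 9.46, 9.70 and 9.73 in wild-type livers after APAP. In saline it read 9.57, 10.06 and 9.85 in livers labelled liver-null, against 9.48, 9.73 and 9.86 in wild-type livers. After APAP the genotypes did not overlap (difference 0.40, SE 0.15, adjusted p = 0.375), as for 6.97% of all genes in that direction, while in saline they overlapped. Averaged over both injections the difference was 0.27 (SE 0.10, 95% interval 0.04 to 0.50, adjusted p = 0.205), with 0.35 within the larger set of arrays and 0.11 within the smaller. The probe set's name marks probes that may bind more than 1 transcript.

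Abcc6, the pump whose loss causes ectopic calcification through a missing ATP release by liver, ranged over 0.61 log2 units in the 12 livers (7.62 to 8.23). Its median was 8.02 in livers labelled liver-null and 8.03 in wild-type livers. The averaged genotype difference was 0.07 (95% interval -0.19 to 0.32, adjusted p = 0.857).

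Drug efflux pumps of broad range came next. Abcg2 (probe set 1422906_at), the breast cancer resistance protein, exports sulfate conjugates, porphyrins and many drugs. Abcg2 read 10.41, 10.12 and 10.32 in livers labelled liver-null after APAP, against 9.83, 9.89 and 9.89 in wild-type livers after APAP. In saline it read 10.01, 10.48 and 10.15 in livers labelled liver-null, against 9.82, 9.94 and 9.90 in wild-type livers. All 6 livers labelled liver-null lay above all 6 wild-type livers, with the lowest at 10.01 and the highest wild-type liver at 9.94. Here the wild-type livers were the tighter group (SD 0.18 in livers labelled liver-null and 0.05 in wild-type livers, n = 6 each). The averaged difference was 0.37 (SE 0.09, 95% interval 0.17 to 0.58, adjusted p = 0.0464), and it was 0.39 within the larger set of arrays and 0.34 within the smaller. The Abcg2 call sat at the threshold: it was lost when any 1 of the 12 livers but liver-null saline 4 was left out, with differences of 0.31 to 0.41 in those fits and adjusted p up to 0.12, and it held with the set as a block (adjusted p = 0.0259). It was also lost within the larger set of arrays (adjusted p = 0.128) and with every probe set fitted on its own (adjusted p = 0.0511).

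Abcb1a, 1 of the mouse genes for P-glycoprotein, was near background. Its brighter probe set read 2.10 to 2.92 and the other 1.80 to 2.69, where the filter lay between 2.42 and 2.48. The difference of 0.16 (SE 0.13, adjusted p = 0.619) therefore says little about Abcb1a in these livers. The closely similar Abcb1b, counted among the other ABC genes, read 2.34 to 4.21 with a difference of 0.17 (SE 0.36, adjusted p = 0.888).

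**Figure D2:**
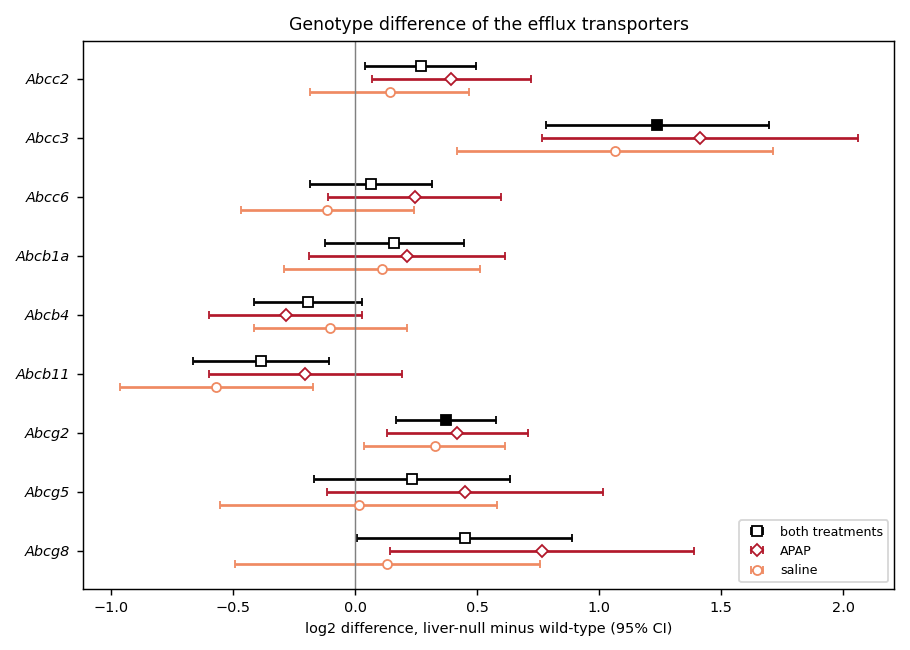
Log2 difference (horizontal axis, livers labelled liver-null minus wild-type livers) of 9 transporters averaged over both injections (squares), after APAP (diamonds) and in saline (circles), with 95% intervals from limma; filled symbols passed an adjusted p under 0.05. Only the averaged values of Abcc3 (1.24) and Abcg2 (0.37) are filled, and Abcb4 and Abcb11 lie left of 0.

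Bile salt and phospholipid exporters had averaged differences below 0 that did not pass the test. Abcb11 (probe set 1449817_at), the bile salt export pump, is a classic target of FXR, and its start region is shown for the inverted repeat in it. The half-site AGGTCA followed, after 1 free base, by its reverse complement TGACCT gave no match. A form with the fourth base of the first half-site also free (AGGNCA), chosen after the window had been seen, matched 63 bases before the start site. The window is RefSeq sequence on the minus strand of GRCm38.p6, written 5′ to 3′, with the match in capitals.
Abcb11, chr2:69342567-69342866, minus strand: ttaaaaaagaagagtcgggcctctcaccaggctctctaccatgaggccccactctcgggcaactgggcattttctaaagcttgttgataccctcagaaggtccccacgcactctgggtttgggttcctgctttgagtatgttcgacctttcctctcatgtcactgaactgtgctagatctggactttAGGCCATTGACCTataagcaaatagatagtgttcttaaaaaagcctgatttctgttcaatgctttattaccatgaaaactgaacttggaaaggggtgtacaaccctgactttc
Searched on both strands, that form occurs in 12 of the 32851 windows (0.0365%), and the first form in 3. Because the form was chosen from this window, its match was fixed beforehand and the share does not measure how unusual it is. The match is a description only, and binding of FXR was not tested.

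Abcb11 read 9.01, 9.25 and 9.01 in livers labelled liver-null after APAP, against 9.46, 9.26 and 9.15 in wild-type livers after APAP. In saline it read 8.96, 8.83 and 9.18 in livers labelled liver-null, against 9.83, 9.73 and 9.13 in wild-type livers. The groups overlapped under both injections, and wild-type saline 8 and 9 stood above all other livers. In saline the difference was -0.57 (SE 0.18, 95% interval -0.96 to -0.17, adjusted p = 0.202). It was -0.88 within the larger set of arrays, where it passed (adjusted p = 0.04), and 0.05 within the smaller set, where the sign turned. Averaged over both injections the difference was -0.39 (SE 0.13, adjusted p = 0.127). The averaged difference was -0.56 within the larger set of arrays, where it passed (adjusted p = 0.0242), and -0.05 within the smaller set; the difference between the sets was not tested. Abcb4 (probe set 1449818_at), the flippase that supplies phosphatidylcholine to bile, read 9.75, 9.75 and 9.47 in livers labelled liver-null after APAP, against 9.99, 9.82 and 10.02 in wild-type livers after APAP. Those groups did not overlap (difference -0.28, SE 0.14, adjusted p = 0.631), as for 6.91% of all genes downward. The Abcb4 difference after APAP was -0.15 within the larger set of arrays and -0.55 within the smaller. In saline Abcb4 read 9.65, 9.53 and 9.45 in livers labelled liver-null, against 9.39, 9.89 and 9.65 in wild-type livers, which overlapped. Its averaged difference was -0.19 (SE 0.10, adjusted p = 0.378), with -0.10 within the larger set of arrays and -0.38 within the smaller.

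Sterol exporters showed the widest spread between single livers after Abcc3. Abcg5 and Abcg8 are half-transporters that form 1 pump for cholesterol and plant sterols, and they lie head to head on chromosome 17. The RefSeq table (GRCm38.p6) holds 2 start regions for Abcg8 and 1 for Abcg5. In the Abcg8 region shown, the start site is 110 bases from that of Abcg5. It shares 209 bases with the Abcg5 region, which are in capitals in the Abcg8 window. The other Abcg8 region does not overlap that of Abcg5.
Abcg8, chr17:84682871-84683170, plus strand: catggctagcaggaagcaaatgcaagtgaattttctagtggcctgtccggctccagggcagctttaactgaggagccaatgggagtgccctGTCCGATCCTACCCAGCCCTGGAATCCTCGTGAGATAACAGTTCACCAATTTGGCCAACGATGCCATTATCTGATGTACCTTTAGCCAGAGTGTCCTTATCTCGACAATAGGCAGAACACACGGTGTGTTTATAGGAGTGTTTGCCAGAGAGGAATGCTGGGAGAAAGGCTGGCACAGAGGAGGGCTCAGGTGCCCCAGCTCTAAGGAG
The pair is shown because both genes were read on separate probe sets and followed each other from liver to liver. With each gene centred on its mean over the 12 livers, the root mean square difference between Abcg5 and Abcg8 was 0.17 log2 units, against a spread of 0.33 for Abcg5 and 0.43 for Abcg8 about their own means. Among 8468 other genes tested, Abcg5 was the nearest to Abcg8 (rank 1), and Abcg8 was at rank 5 for Abcg5. These ranks describe 12 arrays that share the groups and the sets, and carry no test.

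Abcg8 read 7.11, 6.99 and 6.65 in livers labelled liver-null after APAP, against 5.55, 6.20 and 6.70 in wild-type livers after APAP. In saline it read 6.10, 6.63 and 7.07 in livers labelled liver-null, against 6.39, 6.45 and 6.56 in wild-type livers. The groups overlapped under both injections. After APAP the difference was 0.77 (SE 0.28, adjusted p = 0.370), and 0.47 without wild-type APAP 12. It was 1.17 within the larger set of arrays and -0.05 within the smaller set, where the sign turned. Averaged over both injections it was 0.45 (SE 0.20, adjusted p = 0.283). Abcg5 read 9.01, 9.04 and 8.85 in livers labelled liver-null after APAP, against 7.85, 8.83 and 8.87 in wild-type livers after APAP. In saline Abcg5 read 8.34, 8.80 and 9.14 in livers labelled liver-null, against 8.73, 8.71 and 8.79 in wild-type livers. For both genes the wild-type saline livers lay close together (SD 0.04 for Abcg5 and 0.09 for Abcg8, n = 3), while wild-type APAP 12 and liver-null saline 4 were the 2 lowest livers. The averaged difference of Abcg5 was 0.23 (SE 0.18, adjusted p = 0.611). After APAP it was 0.45 (SE 0.26, adjusted p = 0.708), with 0.69 within the larger set of arrays and -0.02 within the smaller.

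**Figure D3:**
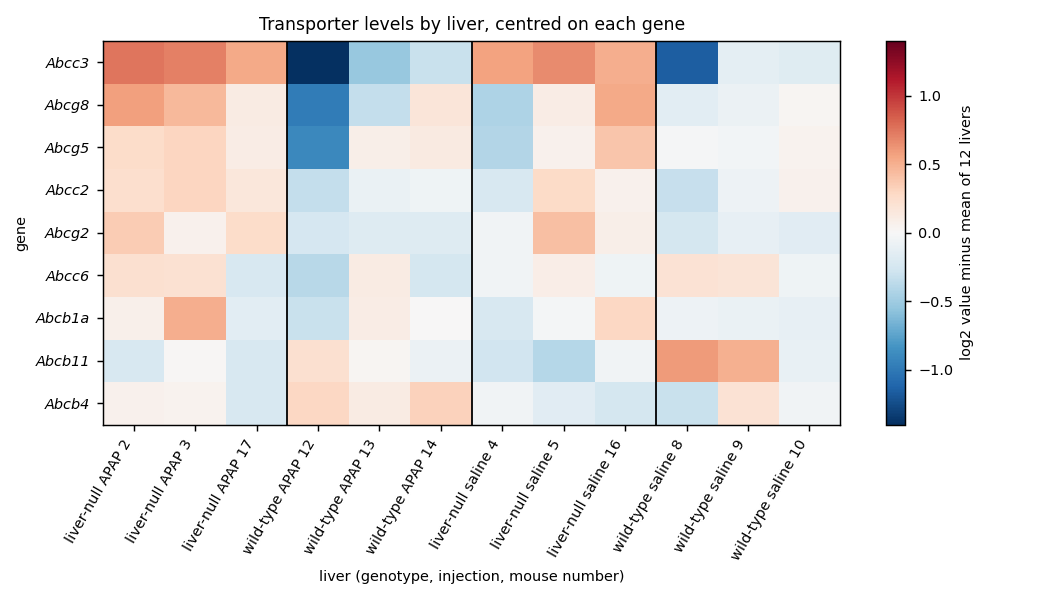
Deviation of each log2 value from that gene's average across the 12 livers (colour, red above and blue below the mean) for 9 transporters (rows) in each liver (columns), grouped by genotype and injection. Wild-type APAP 12 holds the deepest blue of its row for Abcc3, Abcg8, Abcg5, Abcc2, Abcc6 and Abcb1a, and the Abcg8 and Abcg5 rows follow each other.

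One liver stood lowest for most of the transporters. Wild-type APAP 12 held the lowest value of all 12 livers for 6 of the 9 transporters (Abcc2, Abcc3, Abcc6, Abcb1a, Abcg5 and Abcg8), while it held the lowest value for 7.58% of all genes tested. Of these, Abcb1a lay near background, and for Abcc2 wild-type saline 8 was almost as low (9.46 and 9.48). Wild-type APAP 12 read above its group's mean for Abcb4 and Abcb11. Without it, the median genotype difference of the 9 genes was 0.14 after APAP, against 0.40 with it.

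For APAP against saline 8 hours after injection, 0 of 9 transporters passed in livers labelled liver-null and 0 of 9 in wild-type livers (limma). At an unadjusted p under 0.05 the counts were also 0. The groups of 3 livers overlapped for all 9 genes in both genotypes, where 3.18% of all genes did not overlap upward and 1.71% downward in livers labelled liver-null, and 2.23% upward and 2.79% downward in wild-type livers. Over all genes 0% passed in either genotype, with 59 genes in livers labelled liver-null and 143 in wild-type livers at an unadjusted p under 0.05. In livers labelled liver-null all 9 differences were above 0, from 0.07 for Abcg2 to 0.32 for Abcg8 (median 0.11, and 0.02 over all genes). Within the smaller set of arrays 4 of 9 were above 0, and within the larger set 9 of 9. Without liver-null saline 4 the count was 7 of 9. In wild-type livers 7 of 9 were below 0, with a median of -0.23, and those above 0 were Abcb4 (0.30, SE 0.14) and Abcb1a (0.03). Without wild-type APAP 12 the wild-type count was 4 of 9 below 0 and the median 0.03. Within the smaller set of arrays it was also 4 of 9 below 0, with a median of 0.02, and within the larger set 8 of 9. The difference between the genotypes in their response to APAP was above 0 for 8 of 9 genes (median 0.35, and 0.03 over all genes), and 0 of 9 passed, 0 of them at an unadjusted p under 0.05. Within the smaller set of arrays it was above 0 for 4 of 9 genes (median -0.20), and without wild-type APAP 12 for 7 of 9 (median 0.10). Its largest value was 0.63 (SE 0.40) for Abcg8, which was 1.23 within the larger set and -0.55 within the smaller. For Abcc3 it was 0.35 (95% interval -0.57 to 1.26).

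**Figure D4:**
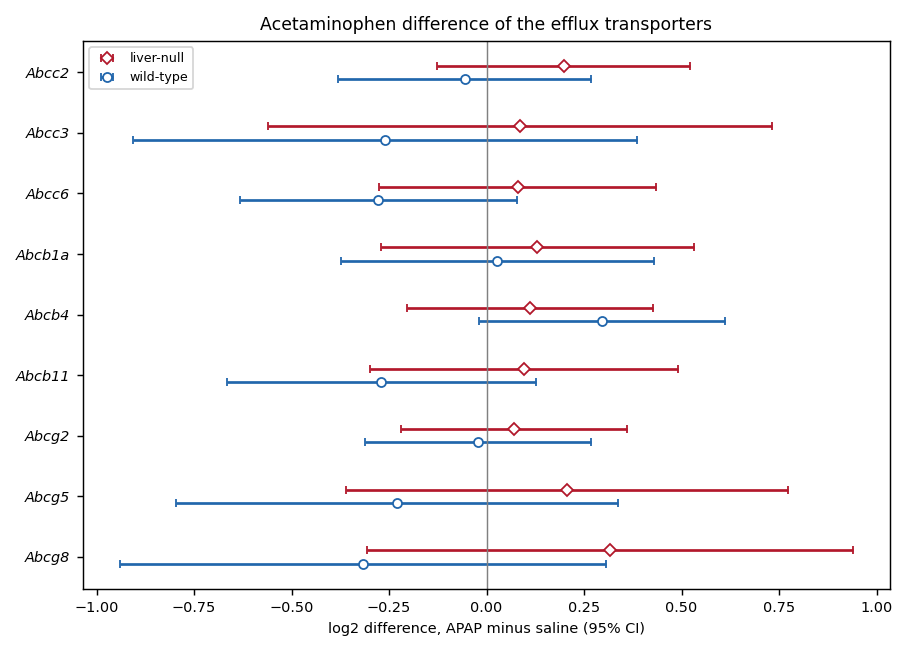
Log2 difference (horizontal axis, APAP minus saline) of 9 transporters in livers labelled liver-null (diamonds) and wild-type livers (circles), with 95% intervals from limma. Open symbols did not pass the threshold, which holds for all 18 values, and every interval includes 0.

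Other ABC genes gave the setting for these values. Of 27 others tested, 1 rose and 1 fell in the averaged genotype comparison, where 2.28% of all genes rose and 2.18% fell. Of the 27 differences 11 were above 0 and 16 below, and the median was -0.04. The one that rose was Abcc5, a pump for cyclic nucleotides and organic anions close to the Abcc members. It read 5.46, 4.31 and 4.98 in livers labelled liver-null after APAP, against 2.84, 2.99 and 2.89 in wild-type livers after APAP. In saline Abcc5 read 4.81, 5.63 and 3.94 in livers labelled liver-null, against 3.10, 3.30 and 3.75 in wild-type livers. No liver of either genotype overlapped the other, as for 2.27% of all genes in that direction. Its averaged difference was 1.71 (SE 0.27, 3.27-fold, adjusted p = 0.00526), and its wild-type levels lay near the filter. Of the 7 probe sets named Abcc5, 4 were tested one by one, and 3 of them rose while the fourth did not pass (-0.06, SE 0.09). Of those that rose, the probe set with the difference of 2.28 lay above the filter in 6 of 6 livers labelled liver-null and 3 of 6 wild-type livers, so its wild-type level was near background. The one that fell was Abcb10, a mitochondrial pump of heme-making cells, at 5.70, 5.81 and 5.99 in livers labelled liver-null after APAP, against 6.79, 6.58 and 6.21 in wild-type livers after APAP. In saline Abcb10 read 4.90, 5.49 and 5.59 in livers labelled liver-null, against 6.83, 6.58 and 6.32 in wild-type livers. Its averaged difference was -0.97 (SE 0.15, adjusted p = 0.00437). A further Abcb10 probe set, tested on its own, had -0.52 (SE 0.16, adjusted p = 0.0989) and did not pass. Alas2, the red cell marker above the filter, lay the same way. It read 6.93 to 7.98 in the 6 livers labelled liver-null and at least 8.01 in each of the 6 wild-type livers. Over all genes, 2.09% split downward in this way. The averaged Alas2 difference was -0.83 (SE 0.23, limma adjusted p = 0.0676), while Hba-a1 lay below the filter on every array. The part of red cells in the Abcb10 result was not tested.

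**Figure D5:**
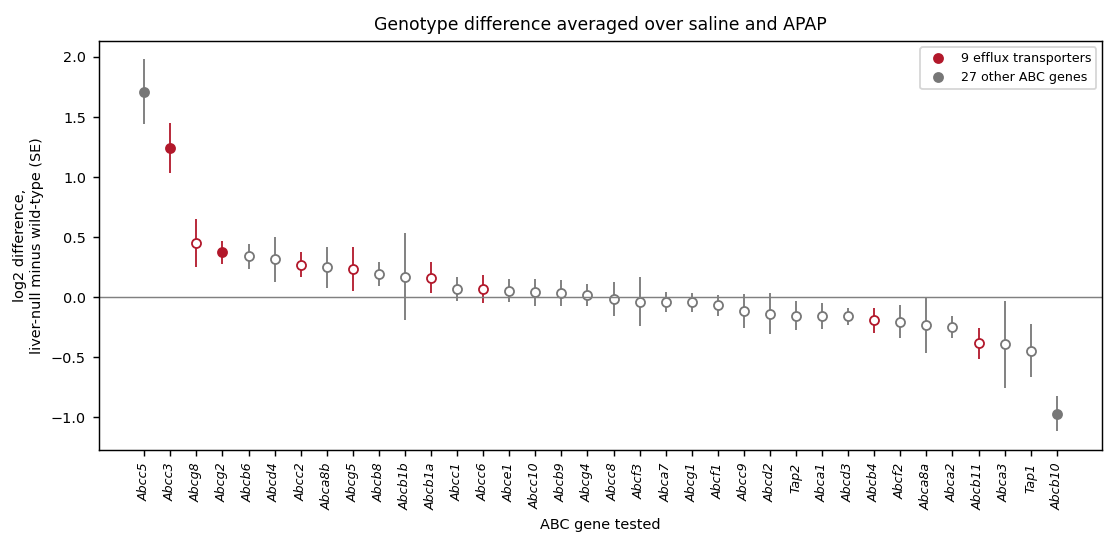
Log2 difference (vertical axis, livers labelled liver-null minus wild-type livers, averaged over both injections) with its SE for 36 ABC genes tested, sorted by size; red marks the 9 efflux transporters and grey the 27 others, and filled points passed an adjusted p under 0.05. Abcc5 (1.71), Abcc3 (1.24) and Abcg2 (0.37) are the filled points above 0, and Abcb10 (-0.97) is the filled point below 0.

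Among 12 tested receptors and factors that regulate efflux pumps, 1 fell and 0 rose in the averaged comparison. Over all genes 2.18% fell and 2.28% rose. The one that fell was Nfe2l2, the gene of NRF2, with a difference of -0.76 (SE 0.11, adjusted p = 0.00418). Nr1h4, the gene of FXR, had -0.15 (SE 0.12), and Nr1h3, the gene of LXR-alpha, -0.03 (SE 0.10). Nr1i3, the gene of the xenobiotic receptor CAR, had 0.84 (SE 0.23, adjusted p = 0.0683). Nr1i3 read 8.98 to 9.14 in the 6 livers labelled liver-null, against 7.13 to 8.73 in the 6 wild-type livers. Over all genes, 2.27% split upward in this way. As for Abcc3, the livers lowest for Nr1i3 were wild-type saline 8 and wild-type APAP 12. Nr1i3 was picked after its values were seen, and any part of it in the Abcc3 result was not tested. The NRF2 targets that are not pumps were listed with earlier results of these data known. Of the 6 tested, 4 rose and 0 fell (median difference 1.39). The largest differences were those of Nqo1, a quinone reductase (3.26, SE 0.28, adjusted p = 0.000223), and Gsta2, a glutathione transferase (2.60, SE 0.28, adjusted p = 0.000455). Of 5 LXR targets outside the set 0 passed (median -0.10), the largest difference being Srebf1 (-1.91, SE 0.50, adjusted p = 0.0548). Of 8 tested partners of the canalicular membrane 0 passed (median -0.06), with Slc47a1, a cation exporter, at 0.35 (SE 0.14, adjusted p = 0.23).

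By the closeness of centred profiles over the 12 livers, the genes outside the set nearest to Abcc3 were Me1, Aox1 and Blvrb, with root mean square differences of 0.18, 0.19 and 0.20 log2 units where the Abcc3 profile itself had 0.71. Nearest to Abcg2 were Ipp, Ngly1 and Akr1a1, at 0.08, 0.10 and 0.10 where the Abcg2 profile had 0.22.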

How the data were processed

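Log2 expression values per probe set were deposited by the authors, who made them with RMA, per the submitters' processing notes. Neither its version nor the set of arrays normalized as one is given in the sources used here. No further normalization was applied. Pairwise correlations between arrays were 0.986 to 0.998. The number of arrays limits the precision. Names follow the platform's annotation, which may be old, and a gene was its probe set of highest mean with 1 symbol. Genes above the array's 40th percentile on at least 3 of 12 arrays entered a limma fit (version 3.58.1, R 4.3.3; a mean for each of 4 groups, default eBayes, 8 residual degrees of freedom, two-sided, Benjamini-Hochberg adjusted p under 0.05 over all 8469 genes). The fit was tested on simulated data. SE belongs to a fitted difference, and SD to arrays. Replicate numbers come from the titles, and none is shared between groups. The members and lists were chosen with earlier results of these data known. The rule for named genes took all members, up to 3 other ABC genes that passed per direction, the 2 largest that passed per direction in each further list (or, where none passed, the one of largest difference), and the 3 genes of nearest profile to each member that passed; Nr1h4, Nr1h3, Nr1i3 and Abcb1b were added after their values were seen. Alternatives covered the filter, probe set choice, set of arrays, normalization, variance model, array weights and each array left out. Coordinates are those of the RefSeq table.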

Additional observations from a re-analysis of the deposited data

How the results depend on the processing

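The averaged Abcc3 difference stayed above 0 and past the threshold in every fit with a test, at 1.07 to 1.35 with 1 array left out. With both injections averaged, 2 transporters passed. The count was 5 with array weights (Abcc2, Abcc3, Abcb11, Abcg2, Abcg8), 1 with every probe set fitted on its own, and 1 to 2 without 1 array. Without wild-type saline 10, Abcb11 passed downward (-0.49, limma adjusted p = 0.0193) and Abcg2 did not pass (adjusted p = 0.0641). Within the larger set of arrays Abcb11 also passed downward and Abcg2 did not pass. After APAP alone, where 0 passed, the count was 2 with array weights (Abcc3, Abcg8), 1 (Abcc3) with the mean-variance trend, with quantile normalization and with the set of arrays as a block, and 0 to 1 without 1 array (1 without wild-type saline 8). In saline alone, where 0 passed, it was 3 with array weights (Abcc3, Abcb11, Abcg2), 1 (Abcb11) within the larger set of arrays, and 0 to 1 without 1 array (1 without wild-type saline 10). The causes were not tested. Array weights favoured wild-type saline 9 (4.63) and liver-null saline 5 (3.68).

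Over all genes, 378 passed with both injections averaged (1409 with array weights, 882 with the block, 590 with quantile normalization, 208 to 416 without 1 array). In saline 54 passed (1323 with array weights, 243 with the block, 119 with the trend, 117 within the larger set, 104 with quantile normalization, 19 with the arrays compared alone, 10 to 92 without 1 array). After APAP 65 passed (210 with array weights, 185 with the block, 39 with the arrays compared alone, 21 to 60 without 1 array). Abhd1 passed for APAP in livers labelled liver-null within the larger set, and Jun for APAP over both genotypes without liver-null APAP 17, both named after their values were seen.

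The averaged differences of Abcc3 and Abcg2, the ones that passed, kept their sign in every alternative. Within the smaller set of arrays, which has no test, 17 of 54 differences of the transporters turned, among them Abcb11 in saline (-0.57, and 0.05 there), Abcg8 after APAP (0.77, and -0.05 there), and the difference in response of Abcg8 (0.63, and -0.55 there) and Abcg5 (0.44, and -0.37 there). In fits with a test, others turned. For APAP against saline in wild-type livers, leaving out 1 array gave Abcc2 -0.162 to 0.0298, Abcc3 -0.595 to 0.0635, Abcg2 -0.0577 to 0.00643, Abcg5 -0.407 to 0.105 and Abcb1a -0.0577 to 0.148 (-0.0165 within the larger set). In livers labelled liver-null it gave Abcb1a -0.051 to 0.276, Abcg2 -0.0309 to 0.204 (-0.169 with array weights) and Abcg5 -0.00567 to 0.395. For the genotype in saline it gave Abcb4 -0.230 to 0.0245, Abcg5 -0.174 to 0.226 (-0.150 within the larger set), Abcg8 -0.101 to 0.383 (-0.0533 within the larger set) and Abcb1a -0.0289 to 0.229 (-0.0375 within the larger set). For the difference between the genotypes in their response it gave Abcg2 -0.00866 to 0.227 (-0.116 with array weights) and Abcb1a -0.0785 to 0.249, and Abcb4 was 0.0947 with array weights. No paired analysis was possible because no replicate number is shared between groups.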
